A study of Mus musculus with 3 samples.

Results

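The calcineurin and NFAT pathway was examined through 10 genes, which were picked by their symbols from the 20937 genes listed in the counts. They encode the transcription factors Nfatc1, Nfatc2, Nfatc3 and Nfatc4, the calcineurin subunits Ppp3ca, Ppp3cb, Ppp3cc and Ppp3r1, and the regulators Rcan1 and Rcan2. All 10 were listed and all 10 passed the filter on low counts. RNA from the whole incisor enamel organ, the epithelium that forms enamel, was sequenced in mice 4 weeks of age, with 1 library per genotype. The labels give the cell type as Ameloblasts. Stim1 cKO carried Stim1 fl/fl Cre+, Stim1 HT (labelled Het, Control1) carried Stim1 fl/wt Cre+ and Stim1 Ctrl (labelled Cre negative, Control2) carried Stim1 fl/fl Cre-, so every animal had at least one floxed Stim1 allele. The Cre was AmelX-iCre, which acts in ameloblasts from the secretory stage on, so the other cells of the dissected tissue kept Stim1.

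In store-operated calcium entry, STIM1 senses the loss of calcium from the endoplasmic reticulum and opens ORAI channels in the plasma membrane. The calcium that enters activates calcineurin, a phosphatase made of a catalytic A subunit and a regulatory B subunit. Calcineurin removes phosphates from NFAT proteins, which then enter the nucleus and switch on genes, and NFAT kinases send them back out. RCAN proteins bind calcineurin and restrain it, and RCAN1 is itself a well-known NFAT target. In bone, NFATc1 drives the formation of osteoclasts, and in lymphocytes NFAT drives cytokine genes.

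Levels are in TMM-scaled CPM, that is, counts divided by the scaled library size in units of 1e+06. The total count was 21496136 in Stim1 cKO, with 20216507 in Stim1 HT and 28265960 in Stim1 Ctrl. Stim1 cKO was tested against Stim1 HT and Stim1 Ctrl as grouped controls, by edgeR's quasi-likelihood test over 18702 genes, where a call required an adjusted p below 0.01 and a more than 2-fold change. The controls differ in genotype, so the spread behind each p-value is not that between mice of one genotype. Stim1 was at 72.8 CPM in Stim1 cKO, while Stim1 HT had 129 and Stim1 Ctrl 186 CPM (log2 fold change -1.11, adjusted p = 0.106 in edgeR's test).

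The Stim1 cKO library stood apart from both controls in the sums of several lists of cell type markers, though not of all. Of 8 rod photoreceptor genes, 6 were listed (not Pde6b and Crx), and these summed to 991 CPM in Stim1 cKO but to 12.7 and 11.3 CPM in Stim1 HT and Stim1 Ctrl. Secretory ameloblast genes summed to 3583 CPM in Stim1 cKO and to 31161 and 23104 CPM in Stim1 HT and Stim1 Ctrl, with 4 of 4 lower than in both controls. Maturation ameloblast genes summed to 912, 384 and 168 CPM and dental epithelium genes to 2808, 1727 and 1614 CPM, in the order Stim1 cKO, Stim1 HT, Stim1 Ctrl. In that order the sums were 34875, 47929 and 74671 CPM for fibroblast genes, 2456, 2657 and 2824 CPM for osteoblast and odontoblast genes, 206, 543 and 730 CPM for cartilage genes, 349, 455 and 337 CPM for macrophage genes, of which 6 of 7 were lower in Stim1 cKO than in either control and 1 was higher, and 56.4, 18.7 and 4.31 CPM for B lymphocyte and plasma cell genes. With a single Stim1 cKO library, no result can be given without it. In bulk tissue, fewer cells of a type cannot be told apart from less RNA per cell.

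Of the 10 genes, Ppp3ca stood out as the one with the largest difference, at over 2-fold its control level in Stim1 cKO, whereas all 4 NFAT factors and both RCAN genes were lower in Stim1 cKO than in either control, except that Rcan2 lay between the controls under library size scaling. Ppp3cc was also higher than in both controls, Ppp3r1 lower than in both (higher than in both under library size scaling), and Ppp3cb lay between them. Thus 2 of the 10 genes were higher than in both controls and 7 were lower, where 43.6% of all genes tested were higher and 42.1% lower. The test of edgeR called 0 of the 10 genes, against 0.0749% of all genes tested. An unadjusted p under 0.05 was reached by Ppp3ca and Nfatc1, and by 31.9% of all genes tested, with 18.5% in the higher and 13.4% in the lower direction. Ppp3ca was the only one of the 10 genes more than 2-fold above both controls, as were 19.1% of all genes tested, and 0 were more than 2-fold below both, as were 8.23%. DESeq2, the tool named by the study, called 1 of the 10 genes, Ppp3ca, against 11.6% of the genes to which it gave an adjusted p. The median log2 fold change was -0.33 over the 10 genes and -0.01 over all genes tested.

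**Figure D1:**
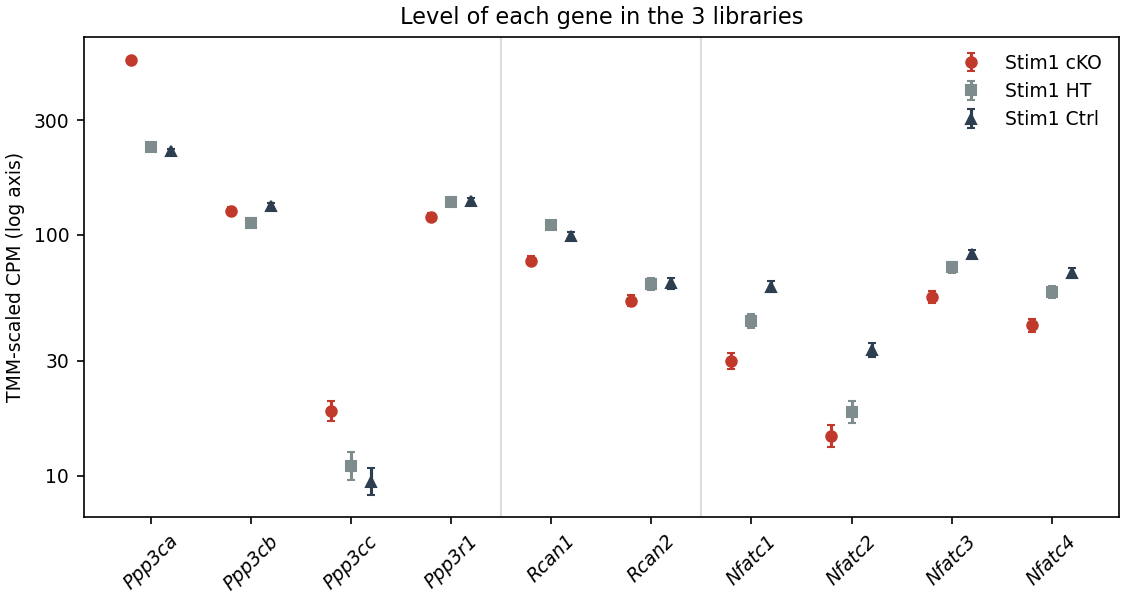
Level of each of the 10 genes in the 3 libraries, in TMM-scaled CPM on a log axis; points are single libraries and bars are 95% Poisson intervals for counting error. Ppp3ca lies at 532 CPM in Stim1 cKO and at 232 and 223 CPM in the controls, while the 4 NFAT factors step down from Stim1 Ctrl through Stim1 HT to Stim1 cKO.

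Ppp3ca encodes the alpha isoform of the catalytic subunit and lies on chromosome 3 from 136670124 to 136937727 (GRCm38, GENCODE M21). It had 12879 counts in Stim1 cKO, with 4563 in Stim1 HT and 5738 in Stim1 Ctrl, which equal 532, 232 and 223 CPM. Stim1 cKO was 2.30-fold above Stim1 HT and 2.39-fold above Stim1 Ctrl, while both controls differed by 1.04-fold. At a log2 fold change of 1.23, edgeR's quasi-likelihood test gave an adjusted p of 0.0624, which did not pass the threshold. DESeq2 gave a log2 fold change of 1.20 (standard error 0.303) and an adjusted p of 0.00107, which did. Over all settings the adjusted p ranged from 0.00107 to 0.0653. Of all genes tested, 19.5% had a larger log2 fold change than Ppp3ca.

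Ppp3ca is known to be abundant in neurons. Of 10 neuron markers, 10 were listed and 8 lay above both controls in Stim1 cKO, against 43.6% of all genes tested. DESeq2 called 8 of the 10 as higher, against 6.30% of the genes to which it gave an adjusted p. The list was chosen with earlier results of these data known, so these counts describe it and are not a test. The summed level of the neuron markers was 1202 CPM for Stim1 cKO, 312 CPM for Stim1 HT and 262 CPM for Stim1 Ctrl. Among them, Stmn2 was at 231, 58.9 and 28.2 CPM, Tubb3 at 192, 62.1 and 33.2 CPM, Syt1 at 156, 14.8 and 5.90 CPM and Rbfox3 at 78.8, 2.99 and 3.69 CPM, in the order Stim1 cKO, Stim1 HT, Stim1 Ctrl. Of the other neuron markers, Nefm was lower than in both controls, at 41.4, 42.7 and 71.3 CPM, and Nefl lay between them, at 49.97, 37.35 and 50.15 CPM. Nefl and Nefm share 1108 exon bases on opposite strands, so without a stated strand setting their counts are uncertain in that stretch. The deposited table lists no gene at 0 in any library. The part of these cells in the level of Ppp3ca was not tested.

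Ppp3cb encodes the beta isoform of the catalytic subunit and lies on chromosome 14 from 20499364 to 20546573. Its level of 126 CPM in Stim1 cKO lay between the controls, which were at 113 CPM (Stim1 HT) and 131 CPM (Stim1 Ctrl), so that the groups overlapped. Its log2 fold change was 0.05 (adjusted p = 0.913 in edgeR's test), and it was -0.06 against Stim1 Ctrl alone. Ppp3cb lay above both controls under 3 of the 8 scalings and filters.

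Ppp3cc encodes the gamma isoform, which is known best from testis, and lies on chromosome 14 from 70217865 to 70289471. It was the least abundant catalytic gene, with 449 counts in Stim1 cKO, with 216 in Stim1 HT and 243 in Stim1 Ctrl. As levels, these equal 18.5, 11.0 and 9.44 CPM, so that Stim1 cKO was 1.69-fold above Stim1 HT and 1.96-fold above Stim1 Ctrl. The log2 fold change was 0.86 (adjusted p = 0.163 in edgeR's test and 0.291 in DESeq2), and Ppp3cc was not called by either tool. Its exons share 91 bases with the antisense gene Gm49417, and since no source states whether reads were counted by strand, its counts are uncertain in that stretch.

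Ppp3r1 encodes the regulatory B subunit, through which calcineurin binds calcium directly, and lies on chromosome 11 from 17159263 to 17200375. It was at 119 CPM in Stim1 cKO, while Stim1 HT had 137 and Stim1 Ctrl 138 CPM. The controls were 0.988-fold of each other and Stim1 cKO lay below both, with a log2 fold change of -0.21 (adjusted p = 0.611 in edgeR's test). With library size as the sole scaling, the value was 0.04, and the median over all genes moved by 0.26. Ppp3r1 shares 462 exon bases with Wdr92 on the same strand, which itself had 12.0 CPM in Stim1 cKO and 16.5 and 12.4 CPM in the controls.

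The makeup of the catalytic subunits within each library does not depend on the scaling between libraries. Ppp3ca made up 78.6% of the counts of the 3 catalytic genes in Stim1 cKO (95% Wilson interval 78.0 to 79.2), while Stim1 HT had 65.2% (64.1 to 66.3) and Stim1 Ctrl 61.3% (60.3 to 62.3). Ppp3cb made up 18.7% in Stim1 cKO (18.1 to 19.3), while Stim1 HT had 31.7% (30.6 to 32.8) and Stim1 Ctrl 36.1% (35.1 to 37.1). The share of Ppp3cc was 2.74%, 3.09% and 2.60%, with overlapping intervals. The higher share of Ppp3ca in Stim1 cKO went with a lower share of Ppp3cb, with 4.21 counts of Ppp3ca for each count of Ppp3cb in Stim1 cKO, while Stim1 HT had 2.06 and Stim1 Ctrl 1.70. These intervals cover counting error within 1 library and not the spread between mice.

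Per exon length, the share of Ppp3ca was 72.2% in Stim1 cKO, with 58.5% in Stim1 HT and 55.3% in Stim1 Ctrl. On the same per-length scale, Ppp3r1 reached 1.07 of the summed catalytic genes in Stim1 HT, 1.06 in Stim1 Ctrl and 0.499 in Stim1 cKO. In CPM per kilobase of exon, Ppp3r1 had the highest level of the 10 genes in both controls, at 42.4 (Stim1 HT) and 42.9 (Stim1 Ctrl), whereas Ppp3ca had the highest in Stim1 cKO, at 53.3. Rcan1 followed Ppp3r1 in the controls, at 35.7 and 32.0, ahead of Ppp3ca at 23.2 and 22.3. Nfatc2 had the lowest level per kilobase in Stim1 cKO at 1.38, in Stim1 HT at 1.74 and in Stim1 Ctrl at 3.13. These shares and ratios were not tested between genotypes.

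**Figure D2:**
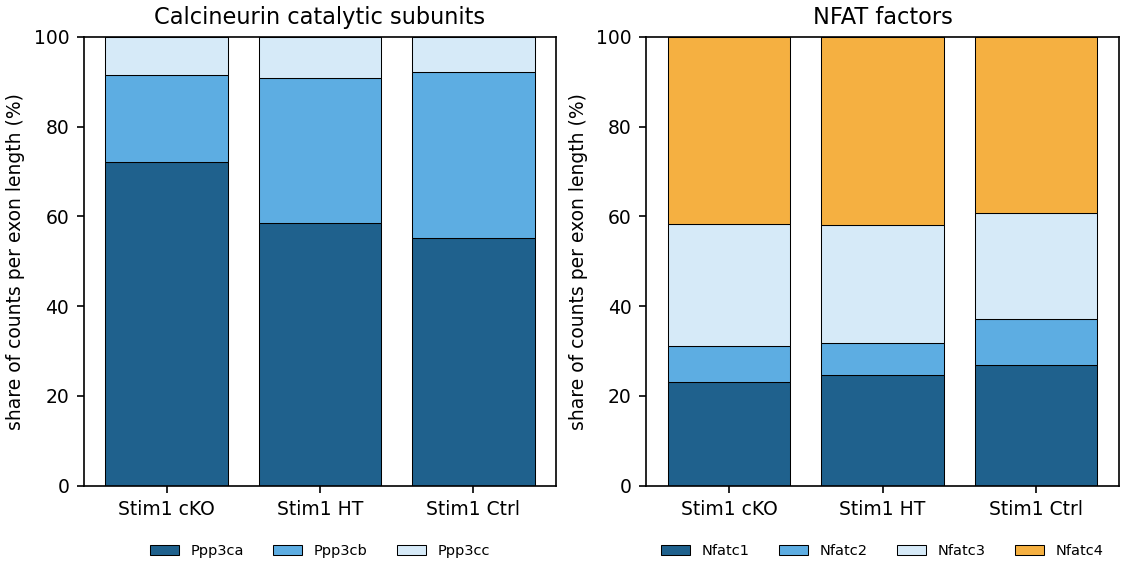
Share of each gene among the catalytic subunits (left) and among the NFAT factors (right), in percent of counts divided by exon length, for each of the 3 libraries. The Ppp3ca part of the bar is 72.2% in Stim1 cKO and 58.5% and 55.3% in the controls, while the Nfatc4 part is between 39.4% and 41.9% in all 3 libraries.

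The calcineurin regulators were lower in Stim1 cKO by less than 2-fold, for Rcan2 not under every scaling. Rcan1, on chromosome 16 from 92391953 to 92470867, encodes the calcineurin inhibitor that is induced by NFAT in many cells. It had 1896 counts in Stim1 cKO, with 2170 in Stim1 HT and 2542 in Stim1 Ctrl, equal to 78.3, 110 and 98.7 CPM. Stim1 cKO lay below both controls, at 0.711-fold of Stim1 HT and 0.793-fold of Stim1 Ctrl. The log2 fold change was -0.42 (adjusted p = 0.327 in edgeR's test and 0.407 in DESeq2), so that Rcan1 did not pass the threshold of either tool.

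Rcan1 is transcribed from alternative starts, and the downstream one is known as the start that calcineurin and NFAT activate. The counts are per gene and sum both. The RefSeq windows of 250 bases before each start (GRCm38.p6, minus strand, printed 5′ to 3′ along the gene) are shown because they differ in the NFAT core GGAAA, which is in capitals on either strand, where its complement reads TTTCC. The upstream window lies at chr16:92466170-92466419 and the downstream window at chr16:92400079-92400328.
Rcan1 start 1: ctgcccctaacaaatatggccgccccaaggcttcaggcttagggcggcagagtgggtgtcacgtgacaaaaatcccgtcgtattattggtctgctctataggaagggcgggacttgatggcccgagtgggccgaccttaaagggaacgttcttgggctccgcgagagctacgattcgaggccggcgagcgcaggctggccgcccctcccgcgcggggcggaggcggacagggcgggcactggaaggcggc
Rcan1 start 2: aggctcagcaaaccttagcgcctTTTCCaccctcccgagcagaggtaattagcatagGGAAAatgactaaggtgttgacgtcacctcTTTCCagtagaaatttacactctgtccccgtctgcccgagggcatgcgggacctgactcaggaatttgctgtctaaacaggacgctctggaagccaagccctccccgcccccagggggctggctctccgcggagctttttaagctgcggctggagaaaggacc
The downstream window holds GGAAA at 3 places, whose first bases lie 227, 193 and 163 bases before the start, and the upstream window holds 0. Of all 32851 windows of this length, 55.6% held the core at least once and 6.39% held it 3 times or more. The downstream window also holds 1 match to TGACGTCA, the CREB site, which 1.55% of all windows held. It holds 1 match to TGACTCA too, 110 bases before the start, which 4.46% of all windows held on either strand. These matches are letters in the window and do not show that a factor was bound there in the enamel organ.

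Rcan2, on chromosome 17 from 43801351 to 44039516, encodes a related calcineurin regulator that is prominent in brain and muscle. It was at 53.4 CPM in Stim1 cKO, while Stim1 HT had 62.7 and Stim1 Ctrl 62.9 CPM. The controls were closer to each other than to Stim1 cKO. The log2 fold change was -0.24 (adjusted p = 0.532 in edgeR's test). Under scaling by library size only, it was 0.02 and Stim1 cKO lay between the controls. For each count of the catalytic genes, there were 0.195 counts of both RCAN genes in Stim1 cKO (0.187 to 0.202, from the 95% Wilson interval of the share), while Stim1 HT had 0.487 (0.467 to 0.507) and Stim1 Ctrl 0.445 (0.429 to 0.461). In the order Stim1 cKO, Stim1 HT, Stim1 Ctrl, the catalytic genes summed to 677, 355 and 364 CPM. The RCAN genes summed to 132, 173 and 162 CPM, so the ratio moved mostly with the catalytic genes.

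The 4 NFAT factors were lowest in Stim1 cKO, intermediate in Stim1 HT and highest in Stim1 Ctrl. This order was found for 25.4% of all genes tested and for 6 of the 10 genes examined here. It was also found for 5 of 6 fibroblast, 7 of 8 osteoclast, 7 of 9 skeletal muscle, 5 of 7 endothelial and 4 of 7 macrophage markers. It was found for 2 of 6 cartilage, 2 of 6 osteoblast and odontoblast, 1 of 4 secretory ameloblast and 1 of 10 neuron markers. The maturation ameloblast, dental epithelium, rod photoreceptor, T lymphocyte and B lymphocyte and plasma cell lists had 0 such markers. The part of these cells in the NFAT levels was not tested. The order held for each of the 4 NFAT factors under all 8 scalings and filters. For Ppp3r1 and Rcan2, the rest of the 6 genes, it held under only 5 of the 8. Their levels in both controls were close, at 137 CPM (Stim1 HT) and 138 CPM (Stim1 Ctrl) for Ppp3r1. For Rcan2 they were 62.7 and 62.9 CPM. The median log2 fold change of the 4 was -0.71, and 0 of them were called by edgeR or by DESeq2. Their summed level was 142 CPM for Stim1 cKO, 194 CPM for Stim1 HT and 247 CPM for Stim1 Ctrl.

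Nfatc1, on chromosome 18 from 80606205 to 80713071, encodes the NFAT factor that drives osteoclast formation. It had 724 counts in Stim1 cKO, with 864 in Stim1 HT and 1570 in Stim1 Ctrl, equal to 29.9, 43.8 and 61.0 CPM. Stim1 cKO was 0.682-fold of Stim1 HT and 0.490-fold of Stim1 Ctrl, and Stim1 HT was 0.719-fold of Stim1 Ctrl. The log2 fold change was -0.81 (adjusted p = 0.146 in edgeR's test and 0.159 in DESeq2). The gap between the controls, 0.48 on the log2 scale, was thus not much smaller than that of 0.55 between Stim1 cKO and Stim1 HT.

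Nfatc2, on chromosome 2 from 168476410 to 168601657, encodes the NFAT factor first known from T cells. It was at 14.6 CPM in Stim1 cKO, while Stim1 HT had 18.4 and Stim1 Ctrl 33.1 CPM. Here Stim1 HT lay nearer to Stim1 cKO than to Stim1 Ctrl, with a log2 ratio of -0.33 for Stim1 cKO to Stim1 HT and of -0.85 for Stim1 HT to Stim1 Ctrl. The log2 fold change against both controls was -0.82, the lowest of the 10 genes (adjusted p = 0.253 in edgeR's test). Of 7 T lymphocyte markers, 6 were listed, and their summed level was 13.7 CPM for Stim1 cKO, 13.9 CPM for Stim1 HT and 3.53 CPM for Stim1 Ctrl. These markers are low, with Cd247 and Cd3e at 4 counts each in Stim1 Ctrl. In CPM, Cd247 was at 3.59, 2.54 and 0.155 CPM and Cd3e at 1.61, 0.812 and 0.155 CPM, in the order Stim1 cKO, Stim1 HT, Stim1 Ctrl. The part of T cells in the level of Nfatc2 was not tested.

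Nfatc3, on chromosome 8 from 106058840 to 106130537, was the NFAT gene with the most counts, namely 1336 in Stim1 cKO, with 1446 in Stim1 HT and 2147 in Stim1 Ctrl. As levels, these equal 55.2, 73.4 and 83.4 CPM, and the log2 fold change was -0.51 (adjusted p = 0.241 in edgeR's test). Its exons share 219 bases with Esrp2 on the opposite strand, which was at 29.1, 17.7 and 21.6 CPM. Nfatc4, on chromosome 14 from 55823144 to 55833943, encodes an NFAT factor known from heart and neurons. It was at 42.1 CPM in Stim1 cKO, while Stim1 HT had 58.2 and Stim1 Ctrl 69.4 CPM, a log2 fold change of -0.60 (adjusted p = 0.191 in edgeR's test). Per exon length, Nfatc4 was the most abundant of the 4 in each library, at 41.8%, 41.9% and 39.4% of the family.

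**Figure D3:**
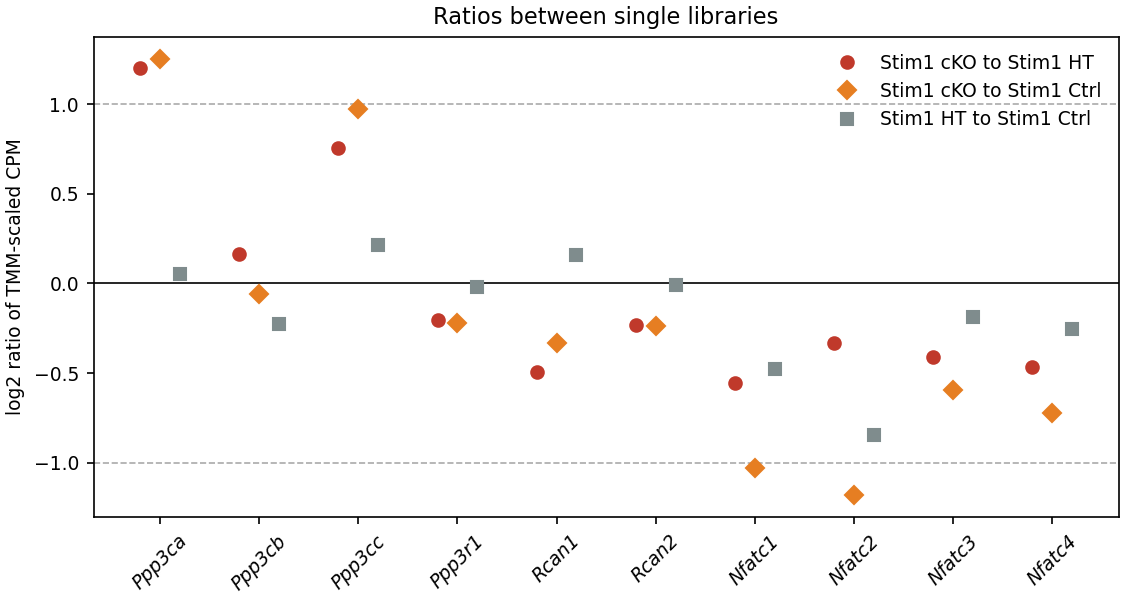
Log2 ratios of TMM-scaled CPM between pairs of single libraries for the 10 genes; dashed lines mark a 2-fold ratio and each point compares 2 libraries with no replicate. Only Ppp3ca lies beyond 2-fold against both controls, at 1.20 and 1.25, and for Nfatc2 the ratio of the controls to each other (-0.85) is larger in size than that of Stim1 cKO to Stim1 HT (-0.33).

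Within the NFAT family, Nfatc3 made up 38.9% of NFAT counts in Stim1 cKO (95% Wilson interval 37.3 to 40.6), while Stim1 HT had 37.9% (36.3 to 39.4) and Stim1 Ctrl 33.8% (32.63 to 34.95). Nfatc1 made up 21.1% in Stim1 cKO (19.8 to 22.5), while Stim1 HT had 22.6% (21.3 to 24.0) and Stim1 Ctrl 24.7% (23.7 to 25.8). Nfatc2 made up 10.3% (9.34 to 11.4), 9.51% (8.62 to 10.5) and 13.4% (12.6 to 14.3) in the order Stim1 cKO, Stim1 HT, Stim1 Ctrl, and the share of Nfatc4 was 29.68%, 30.01% and 28.10%. The intervals of Nfatc2 in Stim1 cKO and Stim1 HT overlapped, and both lay below that of Stim1 Ctrl. For each count of the catalytic genes, there were 0.210 counts of NFAT genes in Stim1 cKO (0.202 to 0.217), while Stim1 HT had 0.546 (0.525 to 0.568) and Stim1 Ctrl 0.679 (0.658 to 0.701). This ratio joins lower NFAT levels with a higher sum of the catalytic genes, at 677 CPM in Stim1 cKO against 355 and 364 CPM.

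Stim1 HT and Stim1 Ctrl were nearer to each other than to Stim1 cKO in 8 of the 10 genes, the exceptions being Ppp3cb and Nfatc2. The corresponding share over all genes tested was 59.0%. On the log2 scale, the ratio of the controls (Stim1 HT over Stim1 Ctrl) ranged from -0.85 for Nfatc2 to 0.22 for Ppp3cc, and 0 of the 10 genes differed more than 2-fold between them. The median size of this ratio over all genes tested was 0.33. With 1 library each, the controls could not be tested against each other.

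The wider pathway was described by 10 further lists with 105 genes, of which 96 were listed and 92 tested. Over these, edgeR called 0 genes, while 15 in the higher and 23 in the lower direction had an unadjusted p under 0.05. Over all genes tested, 18.5% in the higher and 13.4% in the lower direction did in edgeR's test. Of the 92 genes, DESeq2 called 17, 2 of them higher and 15 lower, where it called 6.30% of all genes as higher and 5.26% as lower. Of the 15, 5 were osteoclast genes, 5 slow-fibre and cardiac genes and 2 the muscle genes Myoz1 and Myoz2. Another 2 were NFAT kinases and 1 was another calcineurin substrate. Of the markers, 8 of 8 for osteoclasts and 8 of 9 for skeletal muscle were lower than in both controls. The part of these cells in the calls was not tested. The median log2 fold change over the 92 genes was -0.19. For the counts of each list that follow, 43.6% of all genes tested were higher than in both controls and 42.1% lower. Exons of Cd247, Cd3e, Csnk1e, Fosl1, Homer2, Homer3, Jund, Kpnb1, Maf, Mb, Myh7, Myl2, Orai1 and Acp5 overlap genes on the opposite strand, so without a stated strand setting their counts are uncertain to that extent.

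Among 11 genes of store-operated entry, 3 lay above both controls in Stim1 cKO, 6 lay below both and 0 were called by edgeR or DESeq2. Orai1, the channel pore, was at 10.8 CPM in Stim1 cKO, while Stim1 HT had 23.7 and Stim1 Ctrl 24.3 CPM. Itpr2, a calcium release channel of the endoplasmic reticulum, was at 84.2, 38.6 and 38.6 CPM in the same order (adjusted p = 0.0465 in edgeR's test). The median log2 fold change of the list was -0.18.

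Of 12 other calcineurin-binding genes, 11 were tested, 2 were higher than in both controls and 8 lower. DESeq2 called Myoz1 and Myoz2, which encode the calsarcins that tether calcineurin at the muscle Z-disc. Myoz1 was at 60.2 CPM in Stim1 cKO, while Stim1 HT had 288 and Stim1 Ctrl 316 CPM, and Myoz2 at 23.5, 126 and 172 CPM. Akap5, which anchors calcineurin at neuronal membranes, was at 7.56, 2.49 and 2.91 CPM and was called by neither tool. Rcan3, the third RCAN gene, was at 39.9, 43.6 and 45.8 CPM, with a log2 fold change of -0.16. Cabin1, which encodes a calcineurin inhibitor, had a log2 fold change of -0.03.

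NFAT kinases numbered 12, of which 4 were higher than in both controls and 7 lower, with a median log2 fold change of -0.42. DESeq2 called Prkaca, the catalytic subunit of protein kinase A, and Dyrk1b. Prkaca was at 136 CPM in Stim1 cKO, while Stim1 HT had 412 and Stim1 Ctrl 526 CPM, a log2 fold change of -1.78 (adjusted p = 0.0468 in edgeR's test). Dyrk1b was at 14.9, 37.2 and 42.0 CPM in the same order. In the other direction, Gsk3b was at 224, 95.9 and 124 CPM and Csnk1e at 185, 94.4 and 96.5 CPM, with adjusted p-values of 0.0876 and 0.0778 in edgeR's test. Dyrk1a, which primes NFAT for export, had a log2 fold change of -0.65.

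Of 6 tested genes of nuclear traffic and retention, DESeq2 called Homer2, whose protein competes with calcineurin for NFAT. Homer2 was at 168 CPM in Stim1 cKO, while Stim1 HT had 38.1 and Stim1 Ctrl 39.9 CPM, a log2 fold change of 2.11 (adjusted p = 0.0181 in edgeR's test). Kpnb1, the importin that carries NFAT into the nucleus, was at 156, 273 and 317 CPM and Homer3 at 20.1, 31.3 and 30.8 CPM, and neither was called. Nron was not listed.

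Nfat5, a relative of the NFAT factors that responds to osmotic stress and lacks the calcineurin docking site, was at 172 CPM in Stim1 cKO, while Stim1 HT had 57.6 and Stim1 Ctrl 93.9 CPM. Its log2 fold change of 1.18 was opposite in sign to those of the 4 calcineurin-dependent factors (adjusted p = 0.0987 in edgeR's test and 0.0388 in DESeq2). Of the 15 tested genes of Nfat5 and the NFAT partner factors, 9 were higher than in both controls and 3 lower, and 0 were called by either tool. Maf was at 453, 245 and 240 CPM, and Fosl1 had 36, 5 and 10 counts in Stim1 cKO, Stim1 HT and Stim1 Ctrl. Jund was lower than in both controls, at 212, 280 and 275 CPM. Of 9 tested genes of other calcineurin substrates, DESeq2 called Tfeb, a factor for lysosomal genes, which was at 16.6, 44.7 and 49.1 CPM.

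Of 11 osteoclast genes driven by NFATc1, 0 were higher and 9 lower than in both controls, against 43.6% and 42.1% of all genes tested. The median log2 fold change of the list was -1.87. DESeq2 called 5 of the 11 as lower, Acp5, Ctsk, Dcstamp, Itgb3 and Mmp9, against 5.26% of the genes to which it gave an adjusted p. Since the list was chosen with earlier results of these data known, these counts are not a test. Ctsk, the bone-resorbing protease cathepsin K, was at 184 CPM in Stim1 cKO, while Stim1 HT had 739 and Stim1 Ctrl 742 CPM. Acp5 was at 86.5, 440 and 446 CPM and Mmp9 at 89.5, 420 and 650 CPM in the same order. The 8 osteoclast markers, which are all on this list too, summed to 380, 1644 and 1893 CPM, and all 8 were lower in Stim1 cKO than in both controls. Nfatc1 thus was lower in the library in which osteoclast markers were lower, and the part of osteoclasts in its level was not tested.

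Of 9 genes of the slow-fibre and cardiac programme that calcineurin supports in muscle, 7 were tested and 5 were lower than in both controls. DESeq2 called all 5, Myh7, Tnni1, Tnnc1, Tnnt1 and Myl2. Myh7, the slow myosin heavy chain, was at 4.58 CPM in Stim1 cKO, while Stim1 HT had 123 and Stim1 Ctrl 181 CPM, a log2 fold change of -5.05 (adjusted p = 0.0144 in edgeR's test). Tnni1 was at 4.96, 78.4 and 98.7 CPM. Mb and Ppargc1a were higher than in both controls, at 403, 148 and 228 CPM and at 41.3, 19.3 and 24.6 CPM, and were called by neither tool. The 9 skeletal muscle markers summed to 5135 CPM in Stim1 cKO, while Stim1 HT had 18189 and Stim1 Ctrl 22256 CPM, with 8 lower than in both controls. Their part in these levels, and that of 7 endothelial markers that summed to 240, 533 and 562 CPM, was not tested.

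Of 13 lymphocyte NFAT target genes, 9 were listed and 7 tested, and 0 were called by either tool. Several were near the limit of detection, taken as 3 counts, which equals 0.124 CPM in Stim1 cKO, while it equals 0.152 CPM for Stim1 HT and 0.117 CPM for Stim1 Ctrl. Il2, the classic NFAT target of T cells, had 13 counts in Stim1 cKO, with 1 in Stim1 HT and 2 in Stim1 Ctrl. Tnf had 40, 11 and 8 counts and Ptgs2 89, 26 and 57 counts in the same order. Egr2 and Egr3, which calcineurin induces in T cells, were lower than in both controls, with 107, 152 and 244 counts and with 46, 63 and 95 counts. The median log2 fold change of the list, 1.01, rests on such low counts.

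**Figure D4:**
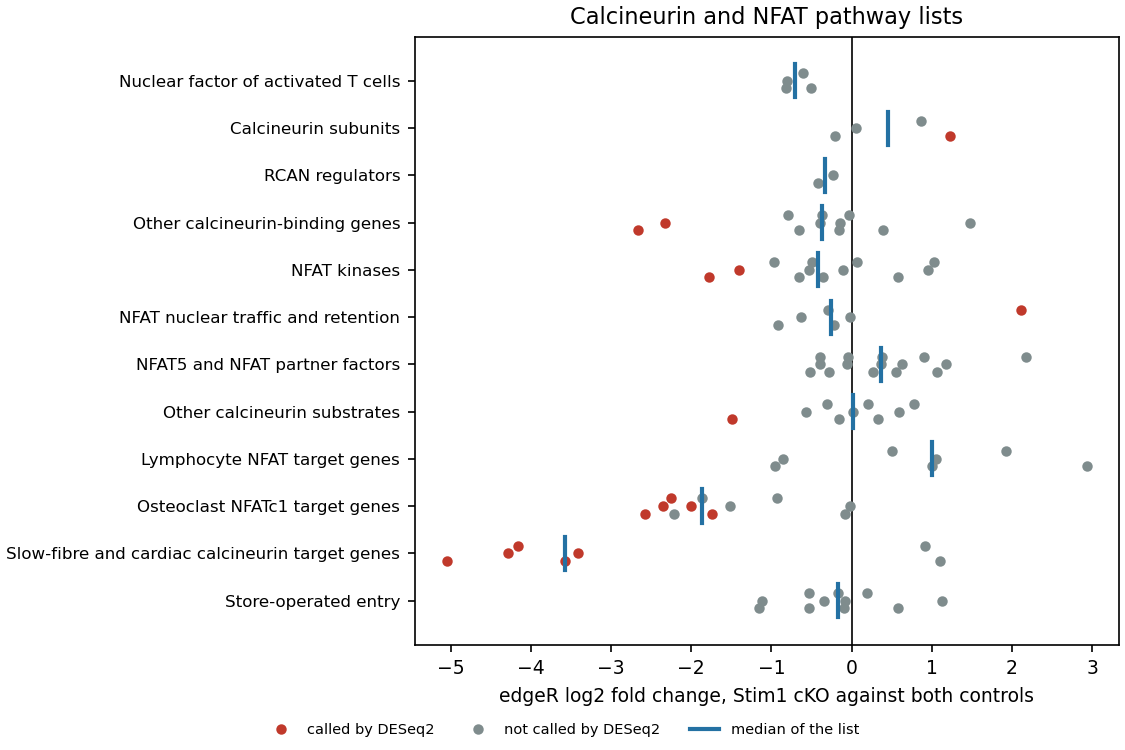
The edgeR log2 fold change of Stim1 cKO against both controls for each tested gene of the pathway lists, where red points were called by DESeq2, grey points were not and blue bars are list medians. The medians range from -3.57 for the slow-fibre list and -1.87 for the osteoclast list to 1.01 for the lymphocyte list, and that of the NFAT factors is -0.71.

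The genes nearest in pattern to Ppp3ca and Nfatc2, the genes with the highest and the lowest log2 fold change of the 10, were sought by the Euclidean distance of centred log2(CPM + 1) over the 3 libraries. Among 14976 tested genes whose counts averaged 50 or more, Paxbp1, Tmem28 and Ephx1 were nearest to Ppp3ca, at distances of 0.0078, 0.0091 and 0.011. Fbxl7, Soga1 and Trim63 were nearest to Nfatc2, at 0.015, 0.016 and 0.024. The added 1 narrows ratios more at low levels. Tmem28 was at 5.58, 1.88 and 1.79 CPM and Fbxl7 at 1.82, 2.54 and 5.24 CPM, in the order Stim1 cKO, Stim1 HT, Stim1 Ctrl. Their ratios between libraries thus lay further from those of Ppp3ca and Nfatc2 than these distances show. Within a distance of 0.1 lay 71 genes for Ppp3ca and 35 for Nfatc2. With 3 libraries, such likeness is a description of these libraries only.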

How the data were processed

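RNA of the incisor enamel organ was sequenced in 3 libraries, 1 per genotype. The values deposited by the authors are unnormalized read counts, 1 row per gene symbol, made from paired-end reads that passed FastQC and trimming and were aligned with STAR. The genome build, annotation, counting tool and strand setting are not given in the sources used here. The methods name a directional NEBNext kit and the labels a SMARTER kit. Every listed gene has at least 1 count in each library, so genes without reads in one library were not analysed. The 25 rows whose symbols had become dates, with 0.154% of the counts, were treated like the other genes.

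The quasi-likelihood test of edgeR 4.0.16 (R 4.3.3) was run with TMM factors (1.13 for Stim1 cKO, 0.975 for Stim1 HT, 0.911 for Stim1 Ctrl), filterByExpr and Benjamini-Hochberg adjustment over 18702 genes. The common dispersion was 0.106, with 1 residual degree of freedom. Alternatives were DESeq2 1.42.0 on all listed genes, with and without shrunken fold changes, other scalings, filters and thresholds, and leaving out either control. Shares have 95% Wilson intervals and levels exact Poisson intervals (scipy 1.17.1, Python 3.11.15), for counting error only. Positions and exon lengths are from GENCODE M21 (GRCm38), in which 20676 symbols were found, and promoter windows are from RefSeq (GRCm38.p6), with windows outside chromosome 18 for 7 of the 10 genes.

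The genes and lists were chosen with earlier results of these data known. Named were the 10 genes, Stim1 and, from each list, genes called by either tool or with the largest gap to the nearer control, up to 3 in each direction, and from each marker list the 3 most abundant and those called, of which some are left out here. 1 of the 10 lists enters the counts over all lists but is not reported here. For Ppp3ca and Nfatc2, the 3 nearest genes in pattern were named. Rcan3, Cabin1, Dyrk1a, Cd3e, Nefl and Nefm fall outside this rule and were named for their role or direction after their values were seen.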

Additional observations from a re-analysis of the deposited data

How the results depend on the processing

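With 1 library per genotype, no result has a replicate check. Of 110 recomputed log2 fold changes of the 10 genes (11 alternatives each), 105 kept their direction and, where a test was run, their side of the threshold. Leaving out either control allows no test. There, a value counted as kept if it held its direction and lay within the standard deviation of the controls of the main value. The main value lies between both single ratios, so this rule was nearly bound to be met. Without Stim1 HT, Nfatc1 was at -1.03 and Nfatc2 at -1.18. Ppp3ca passed the threshold with DESeq2 only, at 1.20 and, when shrunk, 1.13 on the log2 scale. Ppp3r1 and Rcan2 changed sign to 0.045 and 0.022 under library size scaling, which moved the median of all genes by 0.26. Without one control, Ppp3cb ranged from -0.057 to 0.17. DESeq2 called 1 of the 10 genes, with or without shrinkage, against 0 with edgeR. Of the other pathway genes, edgeR called 0, but 4 with upper-quartile scaling, 9 with no filter and 16 at an adjusted p under 0.05, while DESeq2 called 17 under both its settings. Over all genes, the 14 calls of edgeR became 50 with RLE scaling, 138 with upper-quartile scaling, which moved the median of all genes by 0.13, 6 with library size scaling or a mean of at least 50 counts, 907 with no filter and 1811 at an adjusted p under 0.05, and DESeq2 called 1998, or 1984 when shrunk. Calls lower in Stim1 cKO numbered 0 of 14 with edgeR, 13 with upper-quartile scaling, 220 with no filter, 539 at an adjusted p under 0.05 and 909 with DESeq2. The cause of these shifts was not tested. Divided by exon length, the shares of Ppp3ca, Ppp3cb and Ppp3cc were 72.2%, 19.4% and 8.41% in Stim1 cKO, 58.5%, 32.2% and 9.26% in Stim1 HT, and 55.3%, 36.9% and 7.83% in Stim1 Ctrl. No paired analysis was possible because each genotype has 1 library.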

Other observations

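RefSeq windows of 250 bases before a start were used for 7 of the 10 genes, with 12 windows in all. Windows on chromosome 18, where Nfatc1 lies, were left out, so the counts below do not cover Nfatc1. The NFAT core GGAAA, on either strand, was found in 7 of these 12 windows, against 55.6% of all windows of this length. It was found 3 times or more in 4 windows, those of the downstream Rcan1 start, the upstream Nfatc2 start, Nfatc4 and Ppp3cb, against 6.39% of all windows. In Stim1 cKO, Nfatc2, Nfatc4 and Rcan1 were lower than in both controls and Ppp3cb lay between them. Nfatc3, Ppp3r1 and Rcan2, whose windows held the core 0 to 2 times, were lower than in both controls too. For Ppp3r1 and Rcan2 this did not hold under library size scaling. No relation between these letters and the levels was tested.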
